A study of Mus musculus with 8 samples.

Results

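Narrow peaks lying over a transcription start site (TSS) are described here in a map of KLF13 on the chromatin of HT22 cells, an immortalised mouse hippocampal neuronal line. They were chosen by their width and position in the authors' annotated peak list: a distance of 0 bp to a TSS and a width of at most 400 bp. Of 9506 peaks in all, 5984 lay over a TSS and 702 of those were narrow, or 11.7% (exact 95% binomial interval 10.9 to 12.6), at 700 genes. The remaining 5282 peaks over a TSS were wider. All cells carried BirA, a bacterial enzyme that attaches biotin, and had received the plasmid pTO-Klf13Bio, from which KLF13 with a biotin-accepting tag is made. Libraries were made from chromatin collected 24 h after transfection. The 4 ChSP libraries hold chromatin caught on streptavidin (chromatin streptavidin precipitation), and the 4 input libraries hold chromatin that was not precipitated. Both groups received the plasmid, so neither shows the cells' own untagged KLF13 nor what streptavidin catches without the tag, and at a peak that background and KLF13 cannot be told apart. Each peak has 1 value over all 8 libraries, which leaves no measure of replicate error or of read depth and no expression values to check the cells against markers. Fold below is the authors' ratio of ChSP over input for a peak, and p is the authors' p-value.

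KLF13 is a Krüppel-like factor, a family of DNA-binding proteins whose zinc fingers recognise GC-rich boxes and CACCC boxes, sites that the Sp factors share. Such boxes are common in CpG island promoters, the class of promoter that drives most broadly expressed genes. KLF13 can recruit the SIN3 and histone deacetylase corepressors, and in hippocampal neurons it has been studied beside its paralogue KLF9 for effects on neurite growth, cell survival and the circadian clock.

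Promoters at 7 of the 10 narrow peaks with the highest folds are shown first, for the letters in and around each peak. A window can reach past its peak. Each line gives a RefSeq promoter window on GRCm38.p6, from 250 bases before a TSS to 50 after it, read 5′ to 3′ on the gene's strand. Capitals mark matches on either strand to 4 motifs of the KLF and Sp families: GGGCGG (the GC box), CCACCC (the CACCC box), GGGGCGGGG (a long GC box, which contains the first) and CACGCCC (a KLF element).
Taf9b, chrX:106221109-106221408, minus strand: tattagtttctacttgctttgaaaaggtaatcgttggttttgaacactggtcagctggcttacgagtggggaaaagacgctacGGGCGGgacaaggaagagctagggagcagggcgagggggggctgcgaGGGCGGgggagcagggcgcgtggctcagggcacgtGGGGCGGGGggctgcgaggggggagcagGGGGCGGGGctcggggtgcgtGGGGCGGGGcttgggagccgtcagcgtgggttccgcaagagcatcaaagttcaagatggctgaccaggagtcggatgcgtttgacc
Zmym5, chr14:56811415-56811714, minus strand: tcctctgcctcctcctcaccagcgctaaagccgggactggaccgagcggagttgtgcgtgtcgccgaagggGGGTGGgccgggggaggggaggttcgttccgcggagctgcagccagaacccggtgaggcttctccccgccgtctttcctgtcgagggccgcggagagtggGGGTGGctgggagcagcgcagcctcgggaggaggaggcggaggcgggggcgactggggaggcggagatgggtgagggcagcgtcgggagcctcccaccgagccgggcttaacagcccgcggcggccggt
Rimklb, chr6:122486256-122486555, minus strand: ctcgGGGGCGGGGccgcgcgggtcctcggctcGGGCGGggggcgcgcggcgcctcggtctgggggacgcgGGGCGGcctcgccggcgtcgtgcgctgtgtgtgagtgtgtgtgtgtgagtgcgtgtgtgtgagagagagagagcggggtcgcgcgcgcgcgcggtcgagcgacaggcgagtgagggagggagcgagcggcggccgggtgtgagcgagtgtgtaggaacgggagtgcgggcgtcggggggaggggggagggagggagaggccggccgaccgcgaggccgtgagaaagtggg
Tcf7, chr11:52282965-52283264, minus strand: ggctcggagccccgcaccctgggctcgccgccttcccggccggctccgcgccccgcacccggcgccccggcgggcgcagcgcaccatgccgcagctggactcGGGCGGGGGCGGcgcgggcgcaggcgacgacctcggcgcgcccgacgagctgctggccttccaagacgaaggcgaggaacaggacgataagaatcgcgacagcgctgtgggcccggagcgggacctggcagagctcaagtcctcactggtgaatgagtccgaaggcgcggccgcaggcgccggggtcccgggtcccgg
Iqsec2, chrX:152144018-152144317, plus strand: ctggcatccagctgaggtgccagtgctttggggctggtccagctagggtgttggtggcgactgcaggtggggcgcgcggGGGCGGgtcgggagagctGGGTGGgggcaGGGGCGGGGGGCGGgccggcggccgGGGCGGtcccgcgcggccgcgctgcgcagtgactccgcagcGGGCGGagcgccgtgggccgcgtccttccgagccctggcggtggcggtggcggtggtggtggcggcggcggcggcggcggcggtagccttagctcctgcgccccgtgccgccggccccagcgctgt
Lgi2, chr5:52566257-52566556, minus strand: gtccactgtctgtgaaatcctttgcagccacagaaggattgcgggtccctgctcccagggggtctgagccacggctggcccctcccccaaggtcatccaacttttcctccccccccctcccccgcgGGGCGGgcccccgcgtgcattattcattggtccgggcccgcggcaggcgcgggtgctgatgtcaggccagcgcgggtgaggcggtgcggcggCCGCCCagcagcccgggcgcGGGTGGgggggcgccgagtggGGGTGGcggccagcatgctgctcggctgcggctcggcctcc
Pthlh, chr6:147263964-147264263, minus strand: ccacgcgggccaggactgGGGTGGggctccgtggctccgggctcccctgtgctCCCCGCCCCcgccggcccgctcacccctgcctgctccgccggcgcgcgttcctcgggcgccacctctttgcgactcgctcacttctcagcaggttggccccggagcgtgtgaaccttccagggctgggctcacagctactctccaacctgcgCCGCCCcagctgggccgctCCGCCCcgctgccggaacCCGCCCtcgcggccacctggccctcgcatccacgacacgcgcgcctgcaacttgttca
All 5 GC boxes of the Taf9b window lay inside its peak, as did all 4 of Pthlh and both of Lgi2. Of the 3 of Rimklb 1 lay inside, and all 5 of Iqsec2 and both of Tcf7 lay outside the peak. Zmym5 had 0 GC boxes and 2 CACCC boxes, 1 of them inside. GC boxes inside a long GC box are counted here too. These are 7 of the 10 highest narrow peaks, and their windows were picked for holding a match. That each of the 7 has one was thus fixed by the choice. Windows for Chst9, Ralyl and Scara3, which are also among the 10, are not shown. The windows shown therefore do not give the share of the highest peaks with a match.

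The next windows contrast the narrow peak with the smallest p, at Xpo5, with 2 narrow peaks of high fold, at Prok2 and Sumf1, whose windows had none of the 4 motifs.
Xpo5, chr17:46202561-46202860, plus strand: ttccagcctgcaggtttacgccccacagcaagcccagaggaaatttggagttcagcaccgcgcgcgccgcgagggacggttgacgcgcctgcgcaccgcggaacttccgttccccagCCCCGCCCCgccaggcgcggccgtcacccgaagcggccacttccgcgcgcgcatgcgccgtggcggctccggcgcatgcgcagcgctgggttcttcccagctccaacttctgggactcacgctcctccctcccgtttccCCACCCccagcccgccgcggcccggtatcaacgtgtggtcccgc
Prok2, chr6:99726343-99726642, minus strand: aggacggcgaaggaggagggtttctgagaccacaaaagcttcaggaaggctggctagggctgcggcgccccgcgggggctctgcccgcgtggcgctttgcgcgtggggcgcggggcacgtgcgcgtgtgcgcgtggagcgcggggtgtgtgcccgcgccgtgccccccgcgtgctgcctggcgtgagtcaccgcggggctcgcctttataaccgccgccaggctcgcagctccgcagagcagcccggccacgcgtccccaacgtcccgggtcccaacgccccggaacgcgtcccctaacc
Sumf1, chr6:108185534-108185833, minus strand: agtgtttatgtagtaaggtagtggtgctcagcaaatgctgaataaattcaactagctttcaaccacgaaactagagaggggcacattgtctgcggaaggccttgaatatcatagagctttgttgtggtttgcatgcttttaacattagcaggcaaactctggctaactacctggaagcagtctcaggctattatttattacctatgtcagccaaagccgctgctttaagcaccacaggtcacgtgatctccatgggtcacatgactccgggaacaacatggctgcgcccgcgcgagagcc
Xpo5, which encodes the exporter of microRNA precursors, had 1 GC box and 1 CACCC box, with a fold of 24.5. Prok2 encodes the secreted signal prokineticin 2, and its peak had a fold of 25.3. Its window had no match although 73.7% of its bases were G or C. Sumf1 encodes an enzyme that activates sulfatases. Its window had no match at a GC content of 47.3%, and its peak had a fold of 22.5. A match describes letters in the window and does not show binding, and a window without one says nothing about KLF13 elsewhere in the peak.

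Narrow peaks were mostly weak ones. Their median fold was 13.6 (quartiles 11.0 and 16.3), against 25.6 (19.9 and 33.7) for the wider peaks over a TSS. Only 18 of the 702 exceeded the median fold of the wider peaks, and 112 (15.95%) had a fold under 10, against 30 of 5282 (0.568%). Their median p was 2.56e-07, and 7 of 702 had a p at or below the median of the whole list, against 3925 of the wider peaks. Fold, p and width come from the same contrast of ChSP with input, so these values describe the selection and were not tested.

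Median fold rose with width on both sides of the limit, and by more from 400 to 500 bp than between the widths inside it. The 84 peaks of 200 bp had a median fold of 12.3, the 247 of 300 bp 13.2, and the 371 of 400 bp, just inside the limit, 14.02. Just outside it, the 598 peaks of 500 bp had a median fold of 17.3 and the 894 of 600 bp 21.1. Median p fell from 4.67e-06 at 200 bp to 6.13e-08 at 400 bp and 3.40e-10 at 500 bp.

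**Figure D1:**
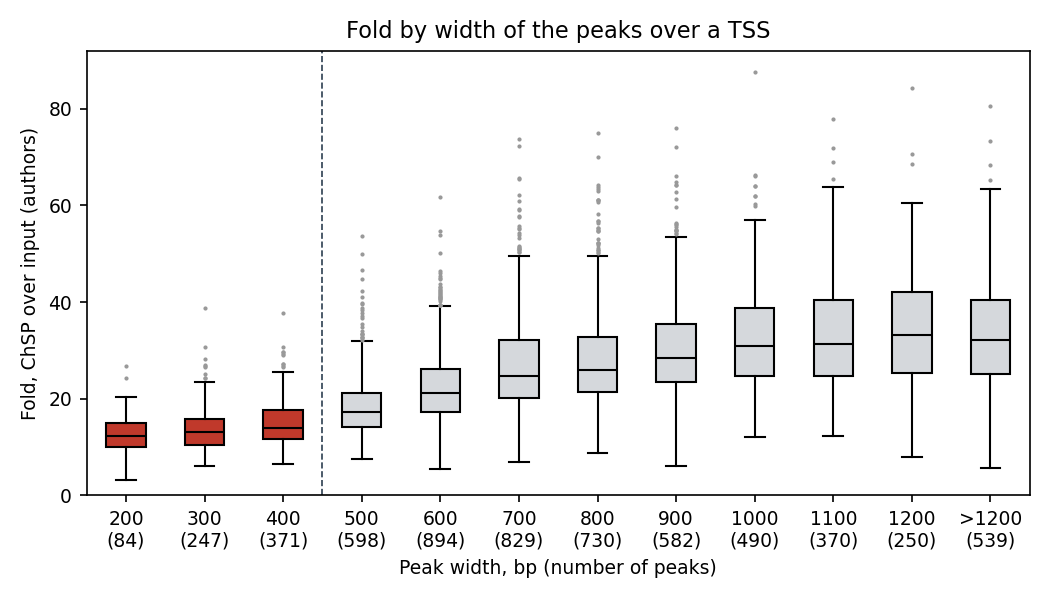
Box plots of the authors' fold of ChSP over input (vertical axis) for peaks over a TSS by peak width in bp (horizontal axis, with the number of peaks). Red boxes are the narrow peaks and grey boxes the wider ones, boxes show quartiles with the median, whiskers reach the last value within 1.5 box lengths, dots lie beyond, and the last box pools widths over 1200 bp. The median rises from 12.3 at 200 bp to 14.02 at 400 bp and 17.3 at 500 bp.

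A few narrow peaks had folds as high as those of wide ones. Taf9b, which encodes a TFIID subunit closely related to TAF9, led with a fold of 38.8 at chromosome X, 106221101 to 106221400, a peak 300 bp wide with an authors' p of 5.87e-07. Zmym5, a MYM-type zinc finger gene, followed with 37.7 at chromosome 14, 56811201 to 56811600 (authors' p of 2.38e-09). Both folds lie well above the upper quartile of 16.3. The p of Taf9b lies between the quartiles of narrow peaks (3.98e-08 and 1.28e-06) and that of Zmym5 below them.

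The other 8 of the 10 highest had folds from 30.8 down to 27.3. They were Chst9, a sulfotransferase gene (30.8), Ralyl, an RNA-binding protein gene (30.7), Rimklb, which encodes an enzyme that makes the neuropeptide NAAG (29.7), and the scavenger receptor gene Scara3 (29.7). Tcf7, a transcription factor of the Wnt pathway, had 29.2, and Iqsec2, an exchange factor for ARF GTPases at excitatory synapses, had 29.0. Lgi2, a secreted leucine-rich repeat gene, had 28.2, and Pthlh, which encodes the parathyroid hormone-related protein, 27.3.

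The smallest p-values picked out other genes. Xpo5 had an authors' p of 1.10e-12, and Map2k3, which encodes a kinase that activates p38, one of 1.33e-12 with a fold of 19.7. Ddit4l, which encodes an inhibitor of mTOR signalling, had 1.51e-12 with a fold of 12.3. The cholesterol transporter gene Npc1 had 2.16e-12 with a fold of 24.8, and Cdkn2aipnl 2.42e-12 with 15.9. None of these 5 was among the 10 highest folds. Across the 702 narrow peaks, which share all libraries, the Spearman correlation of fold with -log10 p was 0.26, and across the 5282 wider ones 0.67.

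At the low end, Car5b, a mitochondrial carbonic anhydrase gene, had a fold of 3.16 at chromosome X, 164028001 to 164028200. Pold2, a DNA polymerase delta subunit, had 5.11, Lin54, the DNA-binding subunit of the MuvB complex, 5.99, Actl6a, a BAF remodeller subunit, 6.01, and Smpd3, a neutral sphingomyelinase gene, 6.36. Car5b, Pold2 and Lin54 had peaks of 200 bp, the smallest width in the list.

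**Figure D2:**
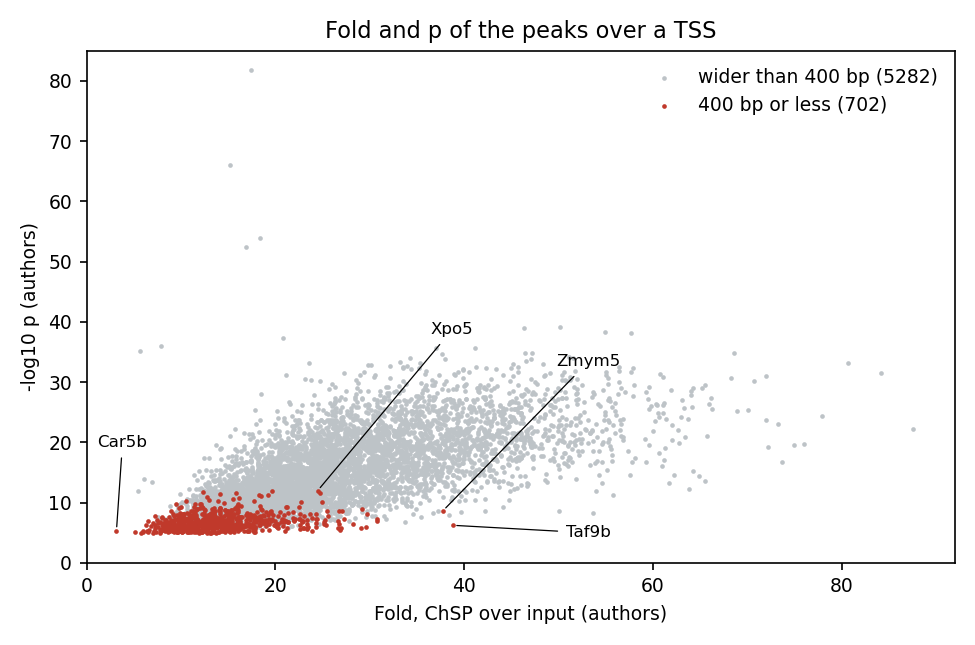
Each point is 1 peak over a TSS, with the authors' fold on the horizontal axis and -log10 of the authors' p on the vertical axis. The 702 narrow peaks (red) lie at the bottom left of the 5282 wider ones (grey), with Taf9b and Zmym5 at the highest folds, Xpo5 at the smallest p and Car5b at the lowest fold.

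Some narrow peaks were the smaller of neighbouring peaks. Another peak lay within 1 kb of 95 narrow peaks (13.5%) and of 287 wider ones (5.43%). The neighbour was assigned to the same gene in 78 of the 95, was wider in 56, equally wide in 20 and had a higher fold in 60, and in 58 the gap was at most 200 bp. Over the whole list, 7220 of 9506 peaks were wider than 400 bp, so a wider neighbour is no mark of these pairs. The median fold of the neighbours was 17.8, against 21.1 over the whole list. Peak calls come from the contrast that set the widths, so these counts were not tested. At Il3ra, which encodes the receptor chain for interleukin 3, a narrow peak with a fold of 17.6 lay 200 bp from a 600 bp peak with 41.6. At Ptch1, the Hedgehog receptor gene, a narrow peak with 17.1 lay 500 bp from a 1000 bp peak with 36.5. At Gnas, the gene of the stimulatory G protein alpha subunit, a 300 bp peak with 14.9 lay 300 bp from one of 2800 bp with 31.1. Of the 10 highest narrow peaks 6 had such a neighbour: Zmym5, Rimklb and Tcf7 at 100 bp, with folds of 31.8, 20.2 and 33.0 in the neighbour, Iqsec2 and Lgi2 at 200 bp, with 19.8 and 13.6, and Ralyl at 900 bp, with 11.97. The 607 narrow peaks with no peak that close had a median fold of 13.4 against 15.2 for the 95.

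Alternative start sites of a gene could carry a narrow and a wider peak. Of the 700 genes, 30 also had a wider peak over a TSS, and the wider one had the higher fold in 26 of 30 pairs. Over all peaks over a TSS, only 18 of 702 narrow peaks exceeded the median fold of the wider ones. Width split the pairs, so the count of 26 describes the selection and was not tested. At Lin54 the values were 5.99 in the narrow peak and 65.6 in a peak of 1100 bp. Shank3, a postsynaptic scaffold gene, had 13.9 and 29.3, Nfia, a nuclear factor I gene, 15.6 and 31.6, and Bcl2l11, which encodes the cell death protein BIM, 13.7 and 28.8. The 4 exceptions included Pik3r1, a regulatory subunit of PI3 kinase, with 25.5 in the narrow and 20.2 in the wider peak. Gad1, which makes the transmitter GABA, and the gene model Gm5577 each had 2 narrow peaks, with folds of 14.8 and 13.3 at Gad1.

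By gene list, narrow peaks were found at 20 of 29 lists, and the counts are read against the 11.7% over all peaks over a TSS, with no test. Synapse and ion channel genes had 19 narrow peaks among 95 (20.0%, exact 95% interval 12.5 to 29.5), with a median fold of 13.7. Cacna1i, a T-type calcium channel gene, had 20.2, the potassium channel genes Kcnk3 and Kcnc1 19.1 and 18.8, and Syp, the synaptic vesicle protein synaptophysin, 18.5. The other 15 ran from Shank1 with 17.7 to the kainate receptor gene Grik3 with 8.33 and included Stx1a, which acts in vesicle release, with 13.3. Of the 24 lists with at least 5 peaks over a TSS, it was the one whose interval lay wholly above 11.7%. That call depends on the setting, with each share set against that over all peaks over a TSS. At 300 bp the list had 9.47% (4.42 to 17.2) against 5.53%, and at 500 bp 29.5% (20.6 to 39.7) against 21.7%. With 1 peak per gene it had 17.2% (9.98 to 26.8) against 11.5%, and without peaks that have another within 1 kb 15.4% (8.21 to 25.3) against 10.8%. In these 4 settings the interval held the share over all.

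Among lists of broadly expressed genes, counts of narrow peaks were small. DNA repair genes had 5 of 21, led by Xpc, a gene of DNA damage recognition, with a fold of 20.3, then Mlh3 (14.9), Brca2 (12.9) and Nbn (12.7). Proteasome genes had 3 of 8, at the ATPase gene Psmc6 (22.1), the assembly chaperone gene Psmg1 (15.4) and Psmd5 (12.3). Mitochondrial ribosomal genes had 2 of 5, Mrpl38 (17.6) and Mrps16 (17.03), and cytosolic ribosomal genes 2 of 14, Rpl31 (12.4) and Fau (10.6). The intervals of these shares were wide, for instance 8.22 to 47.2% for DNA repair, and contained 11.7%. That reading depends on the width limit. At 500 bp, cytosolic ribosomal genes had 64.3% (35.1 to 87.2) and proteasome genes 62.5% (24.5 to 91.5), against 21.7% over all. DNA repair genes then had 42.9% (21.8 to 66.0), also above it. The interval of mitochondrial ribosomal genes, at 60.0% (14.7 to 94.7), held 21.7%. At 300 bp each of these lists had an interval that held the 5.53% over all. Splicing factors had 1 of 37, Hnrnph3 with 13.0. Genes of ubiquitin E1 and E2 enzymes and cullins had 1 of 31, Ube2s, an E2 of the anaphase-promoting complex, with a fold of 26.7.

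General transcription genes had 4 of 26, with Taf15 (14.7), Gtf3a (12.03) and Med25 (10.9) beside Taf9b. Translation initiation factors had 3 of 26, Eif4b with 20.3, Eif3g with 10.2 and Eif2a with 8.26. Nuclear transport genes had 3 of 23, Xpo5, Nup93 (12.2) and Ipo9 (8.77), and DNAJ and heat shock chaperones 3 of 26, Dnajb5 (11.2), Dnajb2 (10.8) and Dnajb1 (9.56). Cell cycle genes had 3 of 21, with the inhibitor gene Cdkn1b at 21.8 and the cyclin gene Ccnb2 at 10.5; the third, Cdkn2aipnl, was taken in by its symbol. Rab4b (12.8) was the 1 narrow peak among 24 of Rab genes.

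Transcription factor and guidance lists lay near the background. Genes named Zfp had 10 of 87, with Zfp711 (17.8), Zfp385a (17.4), Zfp185 (14.7) and Zfp280b (13.6) the highest. Homeobox and related developmental factors had 6 of 48, with Irx4 (19.6), Tbx1 (15.7), Hoxd3 (14.7) and Lhx5 (13.3). Axon guidance genes had 5 of 44, with the ephrin gene Efna2 (17.7), the plexin gene Plxna3 (14.5), the ephrin receptor gene Epha5 (12.7) and the semaphorin gene Sema6a (9.50). Among 4 glial marker genes with a peak over a TSS, the myelin gene Mbp had a narrow one with 26.6. The 1 replication-dependent histone peak over a TSS, at Hist2h2ab, was narrow, with 15.4.

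Genes of KLF13's own family and of pathways it is studied for had peaks over a TSS but 0 narrow ones. These were 15 peaks of KLF and Sp genes, whose smallest width was 500 bp and whose median fold was 33.0, 18 of circadian clock genes (28.8) and 20 of cAMP signalling genes (25.1). Taking 3 peaks of each total as the limit of a count of 0, narrow shares of up to 20.0%, 16.7% and 15.0% are allowed (exact 95% upper limits 21.8%, 18.5% and 16.8%), so a share at the background of 11.7% is within each. Immediate early genes had 0 of 9, which allows up to 33.3% (exact 33.6%), with a median width of 500 bp. With a limit of 500 bp their share was 55.6% (exact 95% interval 21.2 to 86.3) against 21.7% over all, and that of KLF and Sp genes 20.0% (4.33 to 48.1). Clock genes then had 5.56% (0.141 to 27.3) and cAMP signalling genes 5.00% (0.127 to 24.9). Of 15 peaks of SIN3, HDAC and NCoR corepressor genes, 1 was narrow, at the deacetylase gene Hdac1 with a fold of 9.21. Centrosome and cilium genes had 0 of 16, respiratory chain genes 0 of 7, tRNA synthetase genes 0 of 3 and small nucleolar RNA host genes 0 of 3, and olfactory and vomeronasal receptor genes had no peak over a TSS.

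**Figure D3:**
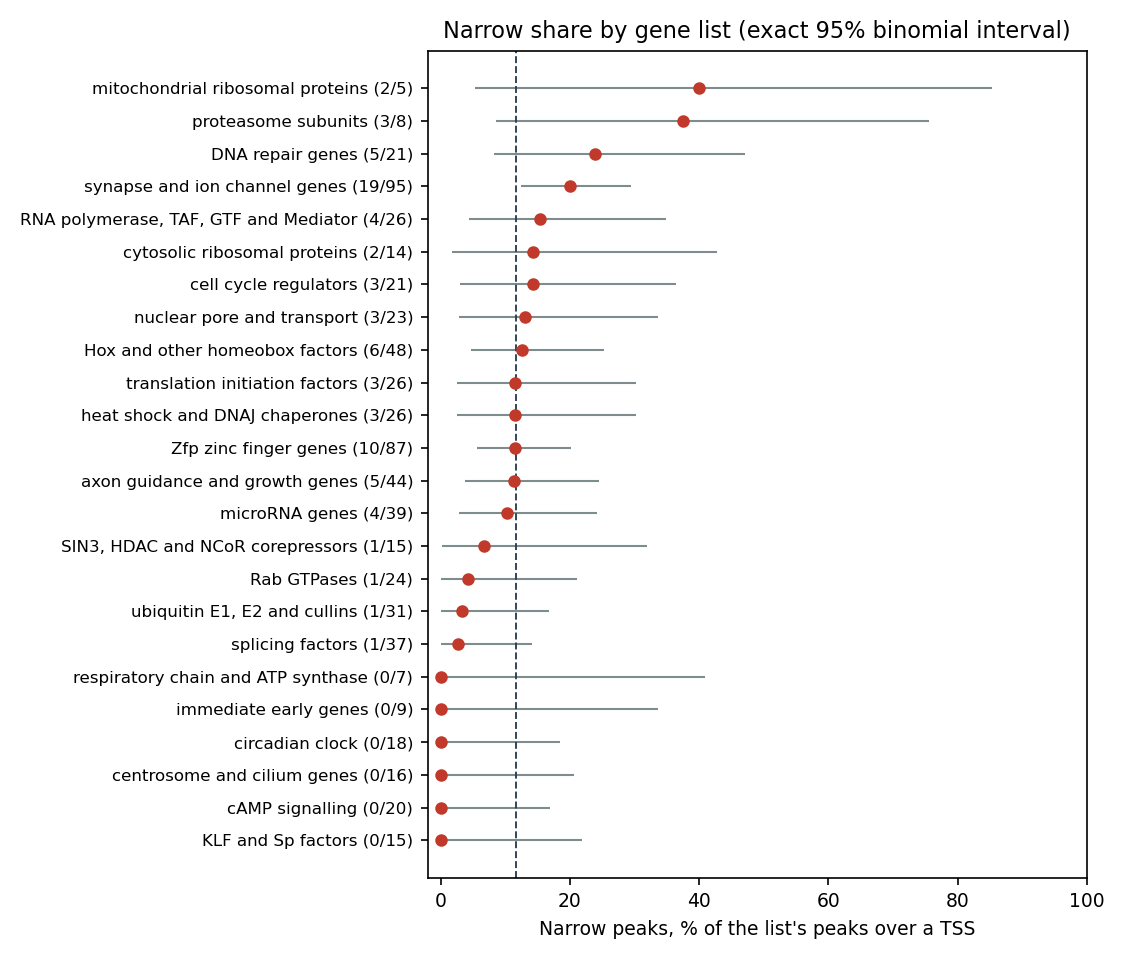
Narrow peaks as a percentage of each list's peaks over a TSS (horizontal axis) for the 24 lists with at least 5 such peaks, with exact 95% binomial intervals for counting error and, after each name, narrow over all. The dashed line is the 11.7% over all peaks over a TSS, and the interval of synapse and ion channel genes (19 of 95) lies above it.

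MicroRNA genes had 4 narrow peaks among 39, counting the host transcript Mirc35hg (11.3). The TSS here is the annotated start of each entry, and whether transcription of the microRNA begins there was not checked. Mir1247 had the highest fold, 20.9, at chromosome 12, 110277901 to 110278200 (authors' p of 1.53e-07), followed by Mir7672 with 13.3 and Mir6546 with 9.62. A wider peak over the TSS of Dio3, which encodes an enzyme that inactivates thyroid hormone, lay 400 bp from the Mir1247 peak with a fold of 16.9. The Mir1247 peak covers both mature arms on the minus strand of GRCm38.p6, shown here from RefSeq, with the seed (bases 2 to 8) in capitals because they lie inside the peak itself.
mmu-miR-1247-5p, chr12:110278094-110278115: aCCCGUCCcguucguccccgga
mmu-miR-1247-3p, chr12:110278058-110278078: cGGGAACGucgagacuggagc

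Promoters under narrow peaks were GC-rich, though less so than those under wider peaks. A RefSeq window of the peak's own gene with its TSS inside the peak was found for 493 narrow (70.2%) and 3947 wider peaks (74.7%). As fewer than 80% of the narrow peaks had one, a check of sequence over all 702 is void, and what follows describes those windows. Median GC content was 65.0% (quartiles 60.3 and 68.7) in narrow windows, 69.3% (64.0 and 73.7) in wider ones and 52.7% over all 32851 windows of the table. Windows rich in CpG, with a GC content of at least 55% and an observed over expected CpG ratio of at least 0.65, made up 362 of the 493 narrow windows (73.4%) and 85.9% of the wider ones. The difference was -12.4 percentage points (95% Newcombe interval -16.6 to -8.56), and 28.1% of all windows passed.

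The GC box was the commonest of the 12 motifs searched. It occurred in 397 of 493 narrow windows (80.5%, exact 95% interval 76.8 to 83.9), in 84.8% of wider ones and in 35.7% of all windows, searched on both strands. Narrow windows lay below wider ones by 4.27 points (Newcombe interval of narrow minus wider -8.15 to -0.819). At a limit of 300 bp the difference was 0.199 (-5.20 to 4.49), and without peaks that have another within 1 kb -3.48 (-7.55 to 0.0992). The long GC box was in 29.8% of narrow, 36.5% of wider and 11.4% of all windows, and the difference of -6.72 points had an interval of -10.9 to -2.28. The CACCC box was in 37.7%, 41.3% and 31.5%, and the KLF element in 19.3%, 20.4% and 8.44%, with intervals of narrow minus wider of -7.99 to 1.07 and -4.58 to 2.81. At least 1 of the 4 was in 439 narrow windows (89.0%), 92.4% of wider and 54.5% of all windows. By number of matches the groups lay further apart: 30.2% of narrow and 42.1% of wider windows had 3 or more GC boxes. The median was 2 in each group. For matches to any of the 4 motifs, 54.0% and 63.5% had 3 or more, with a median of 3 in each. No interval was computed for these shares. In the narrow windows, 745 of 941 GC boxes (79.2%) lay inside the peak, which covered 60.7% of the window bases. Each of these peaks covers the TSS by the rule, so the covered bases are those around it. The same stretch was not counted in other windows, so these shares do not tell whether GC boxes gather under the peaks.

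Motifs of other factors differed by at most 4.66 points. CCAAT, the NF-Y site, was in 34.9% of narrow and 30.2% of wider windows (difference 4.66 points, 0.337 to 9.20), and CCGGAAG, an ETS site, in 16.8% and 13.1% (3.74 points, 0.505 to 7.44). TATAAA, the TATA box, was in 6.09% and 4.03% (2.06 points, 0.149 to 4.59) and TGANTCA, the AP-1 site, in 5.07% and 2.79% (2.28 points, 0.576 to 4.64). CACGTG, an E-box, was in 8.11% and 11.0% (-2.93 points, -5.26 to -0.0298). Over all windows these 5 were in 37.4%, 8.86%, 13.6%, 7.81% and 7.15%. The NRF1 site TGCGCA (14.6% and 13.3%, all windows 7.76%), the cAMP response site TGACGT (9.33% and 10.4%, all 7.51%) and the YY1 core ATGGCG (13.6% and 15.3%, all 8.93%) had intervals that included 0. The 5 differences were not stable: the interval included 0 in 6 of 11 alternatives for CCAAT, 6 for ETS, 7 for TATA, 5 for AP-1 and 10 for the E-box. At a limit of 300 bp it did so for each of the 5, with TATA at -0.289. The 24 intervals of features compared are not adjusted for their number and cover counting error only.

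Peaks of like fold were compared next, and there no sequence feature had an interval that left out 0. Within the quartiles of narrow fold there were 250 narrow and 404 wider windows. The GC box was then in 81.6% of narrow and 79.5% of wider windows (2.14 points, -4.27 to 8.17), and 75.2% and 75.5% were CpG-rich (-0.295 points, -7.23 to 6.34). Median GC content was 65.0% and 66.0%. The difference for the CACCC box was larger there than over all windows, at -4.97 points (-12.5 to 2.78), and YY1 turned to 3.26 (-1.88 to 8.85). The interval for the GC box still reaches -4.27, the size of its difference over all windows, while that for CpG-rich windows ends short of -12.4. In windows with a GC content between the narrow quartiles, an alternative chosen after seeing the data, the GC box difference was 0.901 points (-4.51 to 5.49), that of CpG-rich windows -7.49 (-13.4 to -2.19) and that of the AP-1 site 2.76 (0.0463 to 6.60).

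**Figure D4:**
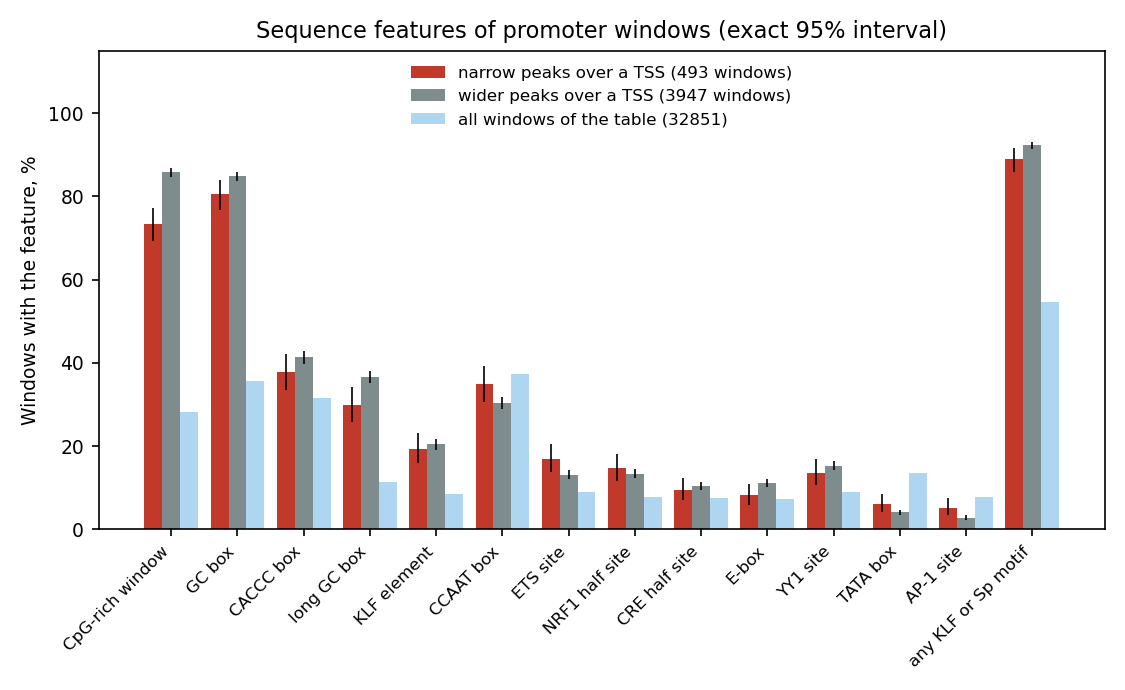
Percentage of promoter windows (vertical axis) with each feature, for 493 windows of narrow peaks (red), 3947 of wider peaks over a TSS (grey) and all 32851 windows of the table (blue), with exact 95% intervals on the red and grey bars. The GC box stands at 80.5%, 84.8% and 35.7%, and the CpG-rich share at 73.4%, 85.9% and 28.1%.

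Genes under narrow peaks were somewhat shorter. The annotated transcript had a median length of 21303 bp, against 30377 bp under wider peaks, and 182 of 702 (25.9%) were under 10 kb against 21.3% (4.63 points, 1.33 to 8.16). Within the same range of folds the shares were 26.9% of 350 and 26.2% of 545 (0.619 points, -5.21 to 6.63). Protein-coding genes made up 667 of 702 (95.01%) and 96.8%, and long non-coding RNA genes 28 (3.99%) and 2.44% (1.55 points, 0.250 to 3.30). The non-coding difference was 0.409 (-0.131 to 1.47) without unnamed gene models, 0.748 (-0.461 to 2.50) without peaks that have another within 1 kb, 0.309 (-2.02 to 3.04) in the fold range and 0.972 (-0.00728 to 2.17) at 500 bp. The difference for protein-coding genes, -1.77 points (-3.69 to -0.296), had an interval that included 0 in 5 of 8 alternatives. Another gene lay within 1 kb upstream of the TSS at 27.2% of narrow and 27.7% of wider peaks (-0.471 points, -3.86 to 3.14). The centre of the peak lay downstream of the TSS in 444 narrow peaks (63.2%), with a median signed offset of 30.5 bp over all 702, and in 74.6% of the wider ones, with 102.5 bp. The width itself bounds that offset, so it was not tested.

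Chromosome X had the largest narrow share of the 20 chromosomes with peaks over a TSS. Of its 97 such peaks 25 were narrow (25.8%, exact 95% interval 17.4 to 35.7), against 677 of 5887 on the autosomes (11.5%). X thus held 3.56% of narrow and 1.36% of wider peaks (2.20 points, 1.01 to 3.86). The 25 folds ran from 3.16 at Car5b to 38.8 at Taf9b, and 17 of the 25 lay above the upper quartile of all narrow peaks. Their median was 17.8, against 13.5 for narrow peaks on autosomes. By the authors' p the 25 peaks were not stronger, with a median of 8.15e-07 against 2.49e-07 for narrow peaks on autosomes. Besides Iqsec2 and Syp they included Pnck, a calmodulin-dependent kinase gene (25.2), Phka1, a phosphorylase kinase subunit (24.3), L1cam, a neuronal adhesion gene (19.7), Plxna3, and Ftx, a non-coding RNA gene of the X-inactivation centre (16.8). These further names were chosen after their values were seen. Between the quartiles of narrow fold, where 6 of 350 narrow and 7 of 545 wider peaks were on X, the difference was 0.430 points (-1.20 to 2.51). That range leaves out the 17 narrow X peaks above the upper quartile and 2 below the lower. Its interval still holds the 2.20 points over all peaks over a TSS. Chromosomes 18 and 14 followed with 18.1% of 155 and 18.04% of 194, and chromosome 19 was lowest with 8.41% of 214.

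**Figure D5:**
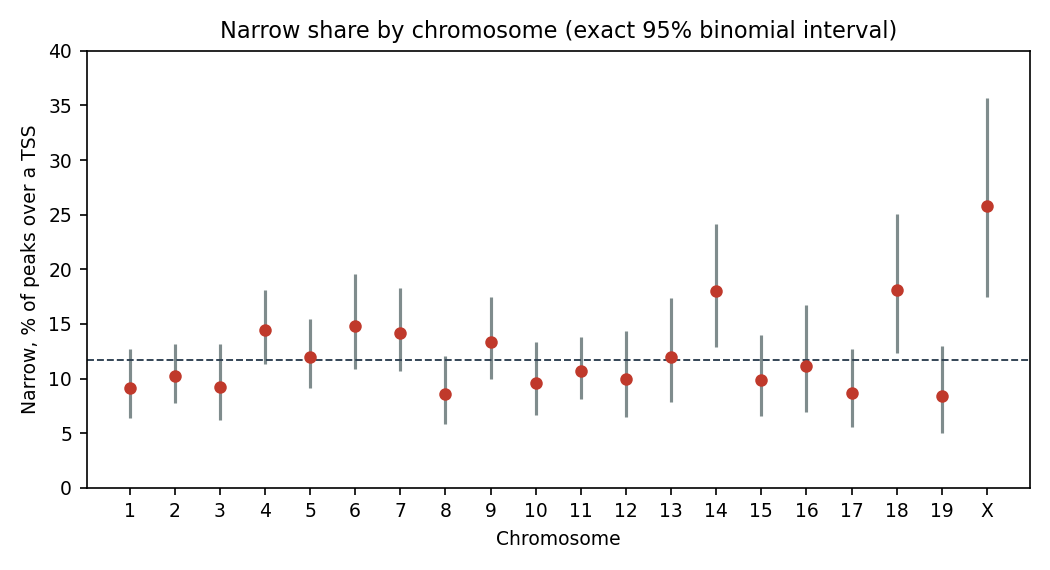
Narrow peaks as a percentage of all peaks over a TSS (vertical axis) on each chromosome (horizontal axis), with exact 95% binomial intervals for counting error. The dashed line is the 11.7% over all chromosomes, and X (25.8%), 18 (18.1%) and 14 (18.04%) have their whole interval above it.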

How the data were processed

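Chromatin from HT22 cells was sequenced as 4 ChSP and 4 input libraries, and the authors deposited 1 annotated peak list for all of them. Its name gives PePr as the peak caller. Per the submitters' processing notes, the build was GRCm38 and the tools were HOMER 4.9.1, ChIPseeker 1.16.1, BWA 0.7.17-r1188 and FastQC 0.11.3, with no role stated. The settings of PePr are not given in the sources here. The deposited fold is a linear ratio of ChSP over input, computed by the authors on an unstated scaling. The deposited p-value and adjusted p-value are also theirs. A score column that the authors deposited is proportional to that fold and was left out. Widths move in steps of 100 bp, and distance and gene assignment come from the authors' annotation.

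Members and lists were chosen with earlier results of these data known. Gene lists were taken by symbol. Motifs were counted on both strands of windows matched by gene identifier and TSS, and gene classes came from RefSeq (GRCm38.p6). Shares carry exact 95% binomial intervals and differences Newcombe intervals. Both cover counting error only and treat peaks as independent; the interval and the motif counter were tested on simulated data. Named genes are the 10 highest folds, the 5 smallest p, the 5 lowest folds, and up to 4 members of each list, with unnamed models skipped in the first 3; Shank1, Grik3, Stx1a, Prok2, Sumf1 and the genes with neighbouring or alternative peaks were named after their values were seen. Alternatives changed the width limit, p, unnamed models, peaks per gene, centre distance, close peaks, fold range, window, number of matches and GC content. Python 3.11.15, pandas 2.3.3, numpy 2.4.6 and scipy 1.17.1 were used.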

Additional observations from a re-analysis of the deposited data

How the results depend on the processing

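Values below are narrow minus wider, in percentage points, unless named otherwise, and the cause of each change was not tested. With narrow at most 300 bp the narrow share was 5.53%, and the direction turned for an upstream gene within 1 kb (1.78), the GC box (0.199), NRF1 (-0.181), YY1 (2.26), TATA (-0.289) and any KLF or Sp motif (0.0326). With 500 bp the share was 21.7% and an upstream gene 0.874. With p at or below the list median, which left 7 narrow peaks and 5 windows, the share was 0.178%, the difference of median folds -10.4 (-11.9 over all peaks over a TSS), genes under 10 kb 22.1, chromosome X -0.892, an upstream gene 14.9, the GC box -26.6, the KLF element 18.3, YY1 3.65 and AP-1 -2.89. With the peak centre within 200 bp of the TSS the share was 16.4%, the median fold difference -11.4 and an upstream gene 0.447. Without peaks that have another within 1 kb these were 10.8% for the share and -12.3 for the fold, and the GC box, at -3.48, had an interval that included 0. In the fold range of the narrow quartiles the values were 0.619 for genes under 10 kb, 0.430 for X, 0.668 for protein-coding genes, -0.295 for CpG-rich windows, 2.14 for the GC box, 3.42 for the long GC box, 0.673 for the KLF element, -2.48 for CCAAT, -1.33 for NRF1 and 3.26 for YY1. With at least 2 matches the E-box was 0.280 and TATA -0.203. In the GC content range, chosen after seeing the data, the GC box was 0.901 and TATA -0.523. Differences whose interval left out 0 came to include it in 10 of 11 alternatives for the E-box, 7 for TATA, 6 each for CCAAT and ETS, 5 each for the GC box and AP-1, 4 each for the long GC box and any KLF or Sp motif, in 5 of 8 for protein-coding and 4 of 8 for long non-coding RNA genes, in 2 of 8 each for genes under 10 kb and X, and in 1 of 9 for CpG-rich windows. No paired analysis was possible because each peak has 1 value over all 8 libraries. For the same reason no library could be left out in turn.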

Other observations

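Gene names were also searched for 12 words after the data had been seen, as a description with no test, beside the 11.7% over all peaks over a TSS. Solute carrier genes had 18 narrow peaks among 117 over a TSS (15.4%, exact 95% interval 9.38 to 23.2), with the zinc transporter genes Slc30a2 at a fold of 27.1 and Slc39a14 at 22.6 and the potassium chloride cotransporter gene Slc12a7 at 24.3. Potassium channel genes had 9 of 51 (17.6%, 8.40 to 30.9) and RIKEN cDNA models 22 of 147 (14.97%, 9.62 to 21.8). Genes with phosphatase in their name had 6 of 138 (4.35%, 1.61 to 9.22), the 1 interval of the 12 that did not hold 11.7%. Those with kinase in their name had 29 of 321 (9.03%, 6.13 to 12.7) and those with ubiquitin 7 of 106 (6.60%, 2.70 to 13.1). The other words had 25 of 224 for zinc finger, 9 of 81 for transmembrane protein, 8 of 63 for mitochondrial, 4 of 29 for G protein-coupled receptor, 9 of 77 for homeobox and 4 of 37 for coiled-coil domain.

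In the list as a whole, a smaller share of narrow than of wider peaks lay over a TSS. Of all 2286 peaks of at most 400 bp, 702 (30.7%, exact 95% interval 28.8 to 32.6) lay over a TSS, against 5282 of 7220 wider ones (73.2%, 72.1 to 74.2). Width chose the members, and a longer peak can cover a TSS by its length alone. These shares are therefore a description with no test, and show no preference of place.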
